A study of Mus musculus with 12 samples.

Results

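Arhgef6, Vav1, Vav2, Was and Pik3cg are the 5 genes of a panel of 754 that encode exchange factors, an effector and a lipid kinase around the small GTPases Cdc42 and Rac. They were taken by name from the table, by a rule that used no measured value. The choice was made with earlier results of these data known. Cdc42 has no row in the table used here, so the genes around it are described and not the GTPase. Total RNA came from cells sorted as HSCs (haematopoietic stem cells) from femur marrow, taken on day 3 after surgery from male animals, with 1 library per mouse taken from a design of 6 Adrb3-/- and 6 wild-type C57/BL6 mice. The 4 groups were Adrb3-/- mice with ICH, read here as intracerebral haemorrhage, Adrb3-/- mice with sham surgery, wild-type (WT) mice with ICH and WT mice with sham surgery, each with 3 libraries. Adrb3 is the beta-3 adrenergic receptor gene, which has no row in the table, so the genotype could not be checked from its level, and the labels name no tissue-specific deletion and no strain for the Adrb3-/- mice. The question is how the level of each gene stood after ICH, with and without the receptor.

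Cdc42 and Rac are molecular switches that cycle between a GDP-bound resting form and a GTP-bound active form. Exchange factors load them with GTP, and effectors that bind the GTP form then build actin filaments, which shape, move and anchor blood cells. In haematopoietic stem and progenitor cells this circuit is known for its part in adhesion to the marrow niche and in movement along chemokine gradients.

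Among the exchange factors, Arhgef6 encodes alpha-PIX, which acts on Rac and Cdc42 and binds the PAK kinases. The gene spans chrX:57231485-57338758 in GRCm38.p6. Vav1, at chr17:57279100-57329236, is largely restricted to blood cells and is switched on by tyrosine phosphorylation below antigen, Fc and integrin receptors. Vav2, at chr2:27262104-27427608, is its broadly expressed relative. Among the partners, Was, at chrX:8081466-8090491, encodes WASP, which GTP-bound Cdc42 opens so that it can start branched actin filaments. Pik3cg, at chr12:32173397-32208677, encodes p110 gamma, the phosphoinositide 3-kinase subunit that G protein beta-gamma dimers activate and whose lipid product recruits exchange factors to the membrane.

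Arhgef6 and Pik3cg had the largest positive differences of the 5 genes between Adrb3-/- and WT after ICH. The profile of Vav1 across libraries, centred on its mean, lay close to that of Pik3cg, and Was serves for comparison. The promoter windows of these 4 genes are therefore shown. Each holds the 250 bases before an annotated transcript start, from RefSeq on GRCm38.p6, read along the gene's strand, with every ETS core in capitals (GGAA or its complement TTCC, the letters at the centre of ETS factor sites). Arhgef6 lies on the minus strand (chrX:57338730-57338979), Vav1 on the plus strand (chr17:57278850-57279099), and Pik3cg (chr12:32208471-32208720) and Was (chrX:8090492-8090741) on the minus strand.
Arhgef6: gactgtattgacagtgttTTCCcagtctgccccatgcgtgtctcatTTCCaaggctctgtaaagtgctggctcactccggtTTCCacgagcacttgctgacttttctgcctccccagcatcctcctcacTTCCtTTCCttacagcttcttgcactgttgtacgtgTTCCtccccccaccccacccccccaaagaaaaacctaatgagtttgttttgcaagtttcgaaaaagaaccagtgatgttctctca
Vav1: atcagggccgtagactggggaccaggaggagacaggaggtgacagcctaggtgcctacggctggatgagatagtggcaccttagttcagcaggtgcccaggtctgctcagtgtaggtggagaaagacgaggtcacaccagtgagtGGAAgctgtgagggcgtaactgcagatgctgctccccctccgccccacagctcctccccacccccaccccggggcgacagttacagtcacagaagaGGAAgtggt
Pik3cg: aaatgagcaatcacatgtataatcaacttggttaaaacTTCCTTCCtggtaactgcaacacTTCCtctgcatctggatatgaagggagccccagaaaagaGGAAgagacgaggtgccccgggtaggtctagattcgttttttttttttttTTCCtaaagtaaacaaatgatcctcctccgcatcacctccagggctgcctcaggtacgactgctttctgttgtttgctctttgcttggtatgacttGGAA
Was: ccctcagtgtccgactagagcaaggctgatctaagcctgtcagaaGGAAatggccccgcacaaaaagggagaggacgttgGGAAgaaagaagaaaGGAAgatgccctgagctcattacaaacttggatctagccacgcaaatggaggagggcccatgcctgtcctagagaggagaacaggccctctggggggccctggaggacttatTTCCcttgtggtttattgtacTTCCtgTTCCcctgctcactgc

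The Arhgef6, Pik3cg and Was windows hold 6 ETS cores each, a number that 8.69% of 32851 promoter windows of the same length reach. The Vav1 window holds 2, which 76.8% of windows reach. The longer letters GAGGAAGT, which resemble the site of the blood-cell factor PU.1 and contain the ETS core, occur once in the Vav1 window and once in the Pik3cg window, against 2.44% of all windows with at least 1. A second RefSeq window of Arhgef6 and of Pik3cg holds 4 cores each, which 33.4% of windows reach, and no GAGGAAGT. For both genes the window printed is thus the one with more cores. Most of the printed Pik3cg window lies inside the gene span given above. The Vav2 window holds 6 cores and no GAGGAAGT. Both strands were searched. GATA factor letters (AGATAA and also TGATAA) were found in none of these windows, against 16.6% of all windows, and TGTGGT (RUNX factors) in the Was window alone, against 14.05%. CACCC (KLF factors) was found in the Arhgef6, Vav1 and Vav2 windows, against 52.0%. A match of letters is a description of the window and not a bound site.

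The values are scaled signals. Each signal equals whole counts times a factor that all genes of a library share, and a gene with fewer than 20 counts is entered as 20 without scaling. Library totals ran from 110740 to 556407 counts in 11 libraries. WT sham replicate 1 stood apart with 24775 counts and a correlation of 0.09 to 0.17 with the other libraries on the log2 scale, against 0.84 to 0.98 among those 11, so its values are given on their own and it entered none of the tests below. Adrb3-/- ICH replicate 1 had its strongest positive control at 19.8% of the median library and the highest background, and Adrb3-/- ICH replicate 2 had the fewest counts of the 11, with 243 genes held at 20. All 3 Adrb3-/- ICH libraries had more genes held at 20 (104, 243 and 61) than any other of the 11, which had at most 43. Their factors were also the largest, with 1 count worth 1.92, 5.16 and 2.15, against at most 1.90 in the others. Library quality and this group can thus not be told apart, and the part of quality in the differences below was not tested. The marker check did not bear out a pure stem cell sample: the neutrophil genes S100a8 and S100a9 made up 23.2% to 55.3% of the counts, while Kit, a defining stem and progenitor gene, averaged 167 and was held at 20 in 1 library. The other 4 stem and progenitor genes of the marker list, Cd34 (mean 830), Gata2 (387), Cebpa (313) and Flt3 (258), were above 20 in all 11 libraries. In such bulk samples fewer cells of a type and less RNA per cell cannot be told apart. Levels of different genes were read by different probes and are not compared with each other.

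Arhgef6 had a signal of 675, 573 and 648 in the Adrb3-/- ICH libraries, 478, 479 and 506 in the Adrb3-/- sham libraries, 427, 376 and 332 in the WT ICH libraries, and 402 and 530.2 in the WT sham libraries. All 3 Adrb3-/- ICH libraries lay above each of the other 8, an arrangement that 0.297% of the 674 genes tested showed. Each of the 4 groups was looked at both above and below the rest, and only arrangements that a gene met are named. The shares of the other arrangements ran from 0% to 3.41%. Group means were 632 ± 52.9, 488 ± 16.0 and 378 ± 47.6 (SD, n = 3 each) in Adrb3-/- ICH, Adrb3-/- sham and WT ICH libraries and 466 ± 90.4 (SD, n = 2) in WT sham libraries. In that order of levels, Adrb3-/- sham libraries overlapped with WT sham libraries, and WT sham libraries with WT ICH libraries.

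Pik3cg had a signal of 332, 397 and 465 in the Adrb3-/- ICH libraries, 399.5, 348 and 371 in the Adrb3-/- sham libraries, 263, 255 and 248 in the WT ICH libraries, and 302 and 444 in the WT sham libraries. Here the WT ICH group stood out, with all 3 libraries below each of the other 8, as in 0.89% of the genes tested. It is again 1 of several arrangements looked at. The mean was 398 ± 66.4 in Adrb3-/- ICH, 373 ± 25.7 in Adrb3-/- sham and 255 ± 7.55 in WT ICH libraries (SD, n = 3 each), and 373 ± 101 in WT sham libraries (SD, n = 2). The other groups overlapped with one another. The coefficient of variation among the WT ICH libraries was 2.96%, less than the 6.73% to 8.08% that counting error alone gives at their depth, so the closeness of those 3 values exceeds what the counts can resolve.

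Vav1 had a signal of 508, 789.8 and 858 in the Adrb3-/- ICH libraries, 713, 664 and 648 in the Adrb3-/- sham libraries, 513, 543 and 561 in the WT ICH libraries, and 645 and 738 in the WT sham libraries. The Adrb3-/- ICH libraries held both the lowest and the highest value of the 11, with a coefficient of variation of 25.8% against 5.01% to 8.08% from counting error, and the lowest was replicate 1, the library with the weak positive control. The WT ICH libraries lay below both sham groups. Below the WT sham libraries alone, this held for 14.1% of the genes tested, and the share for both sham groups together was not counted. Means were 719 ± 185, 675 ± 33.6 and 539 ± 24.3 (SD, n = 3 each) in Adrb3-/- ICH, Adrb3-/- sham and WT ICH libraries, and 692 ± 65.5 (SD, n = 2) in WT sham libraries.

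Was had a signal of 153, 263 and 293 in the Adrb3-/- ICH libraries, 238, 233 and 264 in the Adrb3-/- sham libraries, 235, 209.6 and 249.6 in the WT ICH libraries, and 256 and 235 in the WT sham libraries. All 4 groups overlapped, and their means lay between 231 and 246. The lowest value again came from Adrb3-/- ICH replicate 1, where its 80 counts stood at 1.24 times that library's background.

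Vav2 had a signal of 165 and 125 in replicates 1 and 3 of the Adrb3-/- ICH group and was held at 20 in replicate 2, where 20 counts are worth 103, so its level there was under 103. In replicate 1 its 86 counts stood at 1.34 times that library's background. Vav2 had 211, 197 and 250.3 in the Adrb3-/- sham libraries, 202, 143 and 125 in the WT ICH libraries, and 184 and 148 in the WT sham libraries. The Adrb3-/- sham libraries lay above both the Adrb3-/- ICH and the WT sham libraries, and overlapped with the WT ICH libraries. The mean was 131 ± 31.3 (SD, n = 3) in the Adrb3-/- ICH libraries with replicate 2 entered at its bound, 219 ± 27.7 and 157 ± 40.5 (SD, n = 3 each) in Adrb3-/- sham and WT ICH libraries, and 166 ± 25.8 (SD, n = 2) in WT sham libraries.

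**Figure D1:**
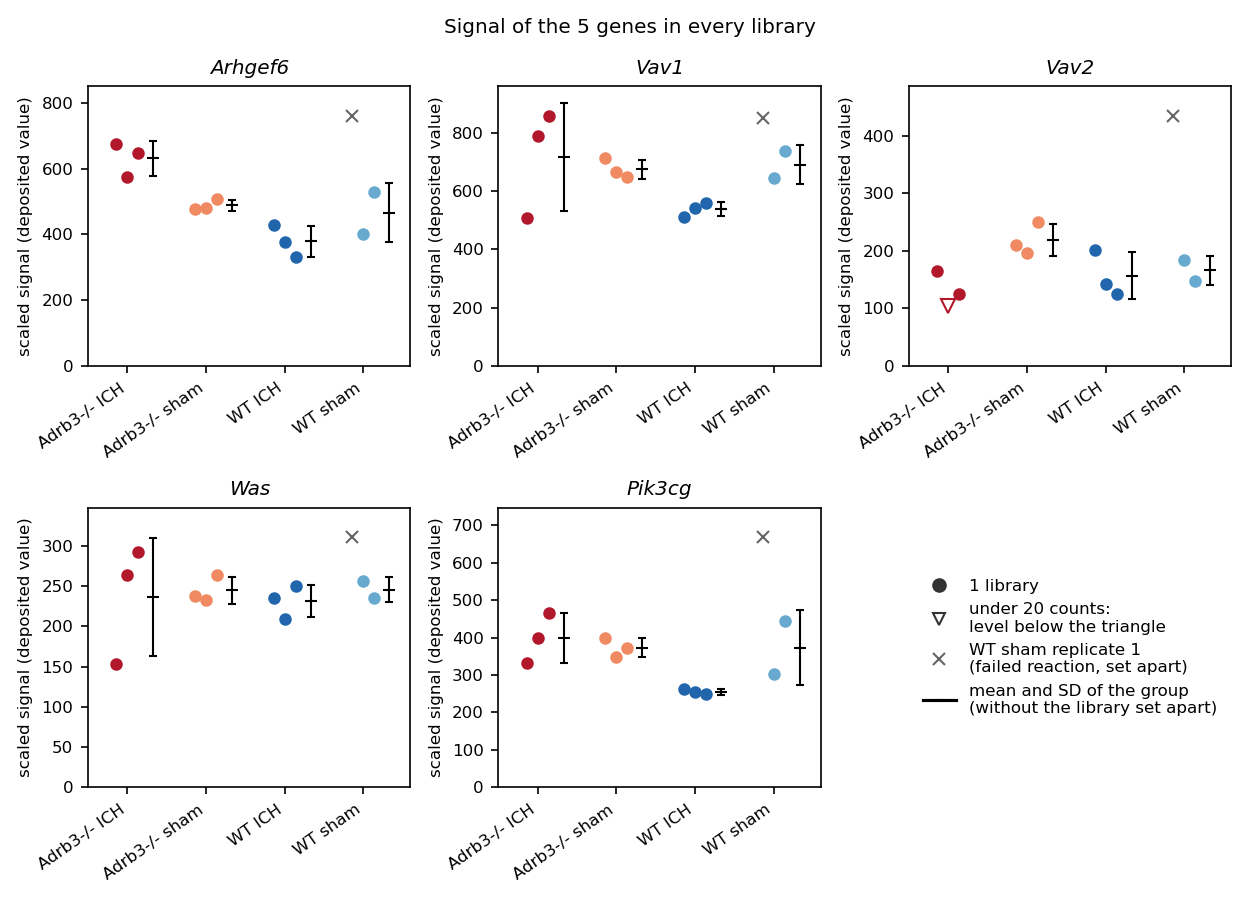
Scaled signal (vertical axis, from 0) of the 5 genes in each library, by group. The group mean and SD cover the 3 libraries (2 in WT sham) and are not drawn for Vav2 in the Adrb3-/- ICH group. The cross is WT sham replicate 1, shown apart, and the triangle is an upper bound for a value held at 20. The Arhgef6 values of the 3 Adrb3-/- ICH libraries, 573 to 675, sit above those of the 8 other libraries tested, and the Pik3cg values of the WT ICH libraries, 248 to 263, sit below them.

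In the WT sham library that stood apart, 1 count was worth a signal of 15.5. Arhgef6 had 49 counts there, Vav1 55, Pik3cg 43, Vav2 28 and Was 20, which is between 0.448 and 1.23 times its background of 44.6 counts. Its scaled signals for the 5 genes, 310.2 to 853, therefore say little about their level.

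Adrb3-/- was compared with WT after ICH to ask whether loss of the receptor went with other levels after the haemorrhage. Arhgef6, the PAK-binding exchange factor, was 1.67-fold higher in Adrb3-/- than in WT ICH libraries, and Pik3cg, the lipid kinase subunit, 1.54-fold higher. Neither passed the threshold after adjustment over all genes, and no gene of the 674 did. The log2 difference of Arhgef6 was 0.74 (SE 0.21, 95% interval 0.28 to 1.21, adjusted p = 0.40 by limma) and its p was the eighth smallest of the table. That of Pik3cg was 0.63 (SE 0.23, 95% interval 0.12 to 1.13, adjusted p = 0.40 by limma). Both had every Adrb3-/- library above every WT library, which 4.9% of the genes tested showed. Of the 5 genes 3 were higher, with a median log2 difference of 0.38, beside 40.5% of all genes and a median of -0.14. At an unadjusted p under 0.05 limma listed 72 genes, 10.7%, of which 8 were higher in Adrb3-/- (1.19%), these 2 among them.

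Vav1 was 0.38 higher on the log2 scale after ICH in Adrb3-/- than in WT libraries (SE 0.24, adjusted p = 0.53 by limma), with overlapping groups. Without Adrb3-/- ICH replicate 1 its difference was 0.61 (adjusted p = 0.19 by limma), while Arhgef6 had 0.69 and Pik3cg 0.75. With 1 library left out at a time, the difference ran from 0.24 to 0.61 for Vav1. It ran from 0.65 to 0.83 for Arhgef6 and from 0.51 to 0.75 for Pik3cg. Was had a difference of -0.02 (SE 0.26, 95% interval -0.60 to 0.56) and its sign turned to 0.05 when libraries were centred on their medians. Vav2 had -1.02 (SE 0.63, adjusted p = 0.52 by limma), or -0.25 (SE 0.26) with its held value at the bound, so most of that difference rests on 1 value below the counting floor. Quantile normalization moved the median of all genes to 0.04; Arhgef6, Pik3cg and Vav1 stayed higher under every scaling tried, with 0.63, 0.61 and 0.27 after quantile normalization.

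Markers of other cells stood as follows in the same comparison. All 12 mature neutrophil markers were higher in Adrb3-/- than in WT ICH libraries, by a median log2 difference of 0.40 and with none past the threshold, and their summed signal ran from 289311 to 551487 in Adrb3-/- ICH libraries, against 263598 to 336619 in WT ICH libraries. Of 16 monocyte, macrophage and dendritic cell markers, 12 were lower, with a median of -0.78 and none past the threshold. Of 5 stem and progenitor markers, 4 were higher, with a median of 0.60 and none past the threshold. Their summed signal was 929, 2741 and 3672 in Adrb3-/- ICH replicates 1, 2 and 3, against 1037 to 1525 in WT ICH libraries. The part of all these cells in the levels of Arhgef6 and Pik3cg was not tested.

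Setting each gene against Was in the same library removes any factor that scales a whole library, and this ratio was chosen after the values were seen. Arhgef6 over Was was 2.18 to 4.40 in Adrb3-/- ICH libraries, against 1.33 to 1.82 in WT ICH libraries. Vav1 over Was was 2.93 to 3.31 in Adrb3-/- ICH libraries and 2.18 to 2.59 in WT ICH libraries. Pik3cg over Was was 1.51 to 2.16 in Adrb3-/- ICH libraries and 0.994 to 1.21 in WT ICH libraries. For these 3 genes the groups were apart, as for 2.53% of 673 genes set against Was in this way. For Vav2 over Was the groups overlapped, with 0.076 to 1.07 in Adrb3-/- ICH libraries and 0.5 to 0.86 in WT ICH libraries. The lowest of these Vav2 ratios rests on its held value. The 3 ratios that were apart share Was as denominator and are not independent of one another. The highest ratio of each of the 3 genes (4.40 for Arhgef6, 3.31 for Vav1 and 2.16 for Pik3cg) came from Adrb3-/- ICH replicate 1. Was was close to background in that library. Vav1 itself had its lowest signal of the 11 libraries there. For Arhgef6 the other 10 libraries reached at most 2.26.

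**Figure D2:**
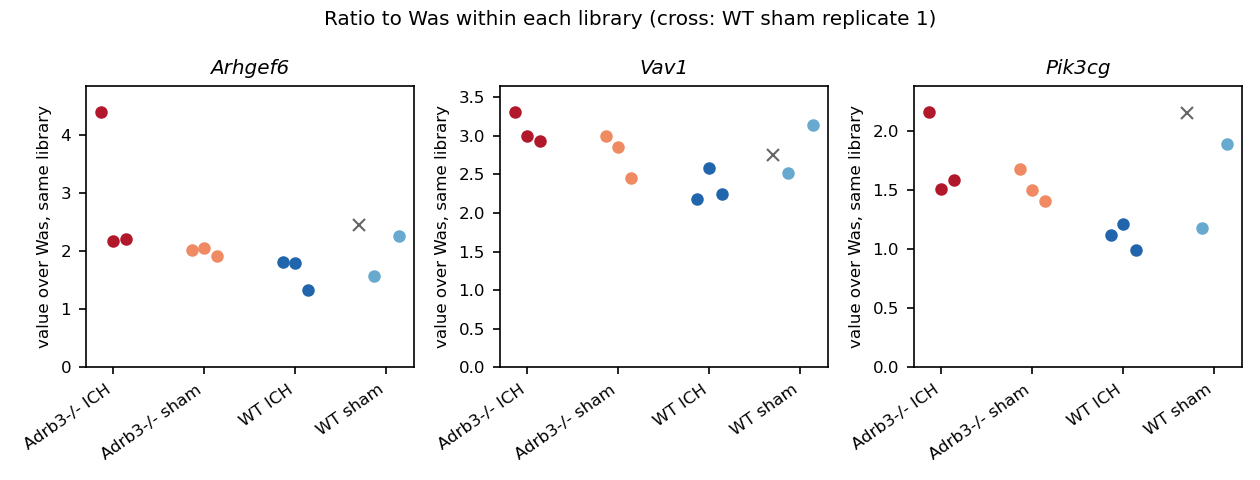
Signal of Arhgef6, Vav1 and Pik3cg divided by that of Was in the same library (vertical axis, no unit, from 0), by group, 1 point per library in 11 libraries. The cross is WT sham replicate 1, shown apart. In each panel all Adrb3-/- ICH libraries lie above all WT ICH libraries, with 2.93 to 3.31 against 2.18 to 2.59 for Vav1. The highest point of each panel is Adrb3-/- ICH replicate 1, where Was was close to background.

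ICH was compared with sham surgery in Adrb3-/- mice. Vav2, the broadly expressed Vav, was lower in all 3 Adrb3-/- ICH libraries than in the 3 Adrb3-/- sham libraries, also with its held value at the bound, and the fold was then at least 1.67-fold lower. Groups apart in this direction occurred in 10.2% of the genes tested. The log2 difference was -1.53 as deposited (SE 0.63, adjusted p = 0.43 by limma) and -0.76 with the bound (SE 0.26, adjusted p = 0.36 by limma). Without Adrb3-/- ICH replicate 2, the library with the held value, it was -0.60 (adjusted p = 0.61 by limma).

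Arhgef6 was 0.37 higher on the log2 scale in Adrb3-/- ICH than in Adrb3-/- sham libraries (SE 0.21, adjusted p = 0.54 by limma), with all 3 libraries above, as in 1.63% of genes. Vav1 had 0.06 (95% interval -0.47 to 0.58), Pik3cg 0.08 (-0.42 to 0.59) and Was -0.10 (-0.68 to 0.48), each with overlapping groups. Of the 5 genes 3 were higher, beside 32.9% of all genes, with a median of 0.06 against -0.16. In this comparison 7 genes passed the threshold in limma, 1.04% of those tested, and 10.8% had an unadjusted p under 0.05. All 7 were lower after ICH: Adgre1, Apoe, Cd163, Hpgds, Mertk, Mrc1 and Vcam1. That count ran from 0 to 50 when 1 library was left out, with 50 without Adrb3-/- ICH replicate 3. None of the 5 genes was among the 7.

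The macrophage markers were also low in the group where Vav2 was low. Of the 16, 14 were lower in Adrb3-/- ICH than in Adrb3-/- sham libraries, with a median log2 difference of -1.54, and 5 passed the threshold in limma. Their summed signal ran from 5110 to 11601 in Adrb3-/- ICH libraries, against 13643 to 24495 in Adrb3-/- sham libraries. It ran from 7647 to 7927 in WT ICH libraries, against 7774 to 8368 in WT sham libraries. Their part in the level of Vav2 was not tested.

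**Figure D3:**
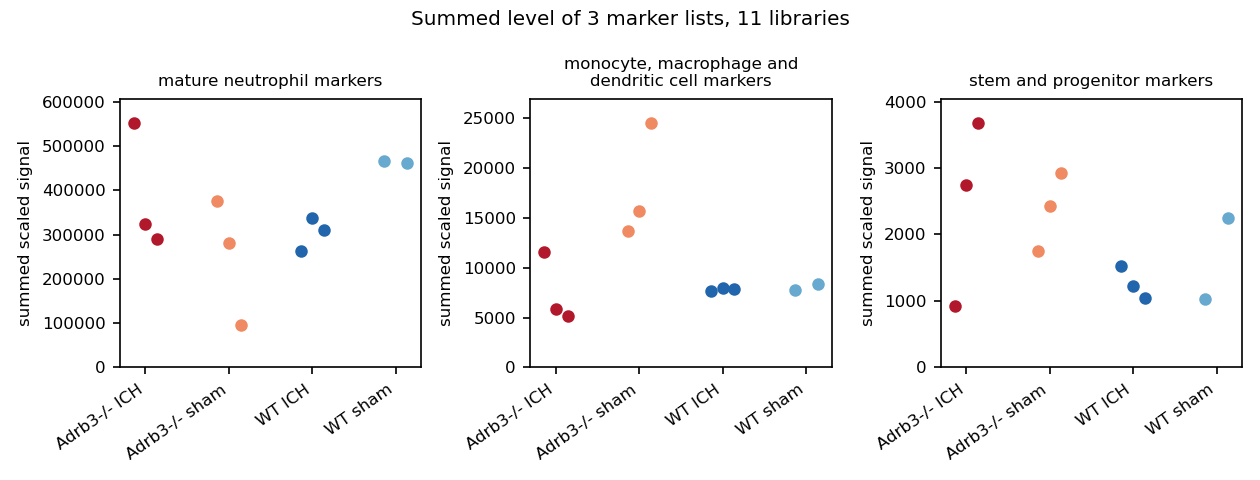
Summed scaled signal (vertical axes, from 0) of the neutrophil, macrophage and stem cell marker lists, by group, 1 point per library in 11 libraries. The macrophage sum reaches 13643 to 24495 in Adrb3-/- sham libraries and at most 11601 in the other groups.

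ICH was also compared with sham surgery in WT mice, where the sham group had 2 libraries. All 5 genes were lower after ICH, with a median of -0.29, as were 71.7% of the genes tested, with a median of -0.11, and no gene passed the threshold; limma also found none at an unadjusted p under 0.05. Pik3cg had the largest difference of the 5, -0.52 on the log2 scale (SE 0.25, 95% interval -1.08 to 0.04, adjusted p = 0.9999 by limma). Its difference rests heavily on which sham library is kept, with -0.80 without WT sham replicate 2 and -0.24 without WT sham replicate 3. Vav1 had -0.36 (SE 0.26). Arhgef6 had -0.29 (SE 0.23), with -0.49 without WT sham replicate 2 and -0.096 without WT sham replicate 3, while Vav2 had -0.10 (SE 0.70) and Was -0.09 (SE 0.29). Pik3cg and Vav1 had all ICH libraries below both sham libraries, and so did 14.1% of genes.

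After sham surgery alone, the estimated differences between Adrb3-/- and WT libraries were small for 4 of the 5 genes, with wide intervals. The WT sham group had 2 libraries, and the Pik3cg difference ran from -0.25 to 0.30 with 1 library left out at a time. The log2 difference was 0.08 (95% interval -0.44 to 0.60) for Arhgef6, 0.02 (-0.54 to 0.59) for Pik3cg, -0.03 (-0.62 to 0.56) for Vav1 and -0.01 (-0.65 to 0.64) for Was. Vav2 had 0.40 (SE 0.70, adjusted p = 0.99 by limma), with all Adrb3-/- libraries above both WT libraries, as for 10.4% of genes. No gene passed the threshold, and 32 (4.75%) had an unadjusted p under 0.05 in limma. Of the 5 genes 3 were higher, beside 38% of all genes, with a median of 0.02 against -0.10. Of the 16 macrophage markers, 14 were also higher in Adrb3-/- sham libraries, with a median of 1.17 and none past the threshold in limma.

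**Figure D4:**
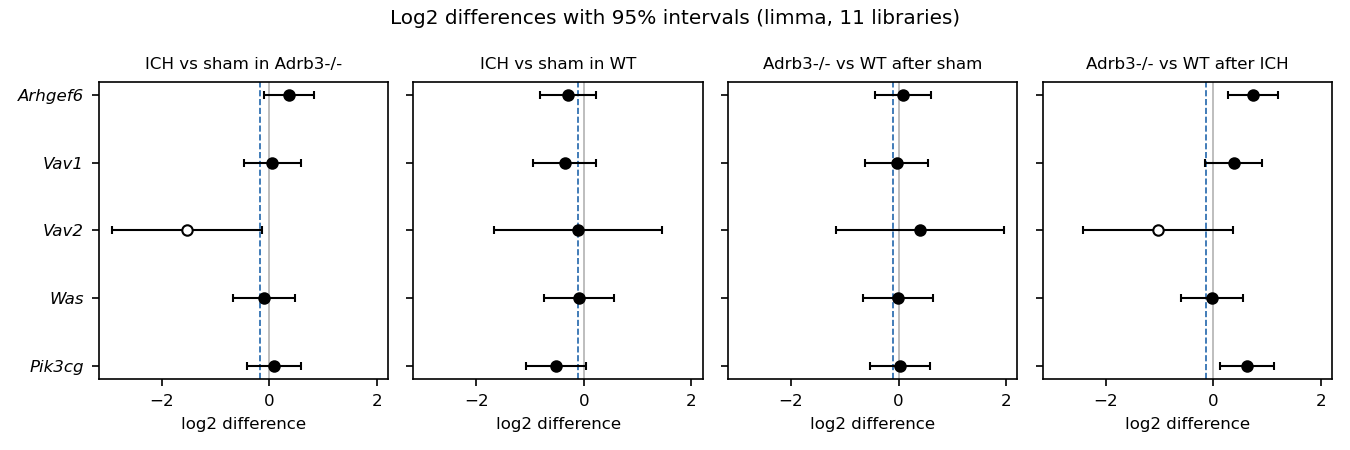
Log2 differences (horizontal axis) of the 5 genes in each comparison, with 95% intervals from limma; open points use the Vav2 value held at 20, and the dashed line is the median of the 674 genes tested. Arhgef6 at 0.74 and Pik3cg at 0.63 stand to the right of that median, -0.14, for Adrb3-/- against WT after ICH.

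The difference between the ICH effects of the 2 genotypes was tested as an interaction. Arhgef6 had 0.66 (SE 0.31, adjusted p = 0.89 by limma), Pik3cg 0.60 (SE 0.34), Vav1 0.41 (SE 0.36), Was -0.01 (SE 0.39) and Vav2 -1.43 (SE 0.94). The Pik3cg value was 0.88 without WT sham replicate 2 and 0.32 without WT sham replicate 3, the Vav1 value was 0.64 without Adrb3-/- ICH replicate 1 and 0.27 without Adrb3-/- ICH replicate 3, and the Vav2 value was -0.50 without Adrb3-/- ICH replicate 2. No gene of the 674 passed, and 29 (4.3%) had an unadjusted p under 0.05 in limma. Of the 5 genes 3 were above 0, beside 45.3% of all genes, with a median of 0.41 against -0.06. These comparisons share groups and are not independent of one another. Averaged over both treatments, the difference of Adrb3-/- from WT was 0.41 for Arhgef6 (SE 0.16, adjusted p = 0.60 by limma) and 0.33 for Pik3cg (SE 0.17, adjusted p = 0.61 by limma; 0.19 without WT sham replicate 2). No gene passed the threshold in that average, and 47 (6.97%) had an unadjusted p under 0.05 in limma. Averaged over both genotypes, the difference of ICH from sham was 0.04 for Arhgef6, -0.15 for Vav1, -0.22 for Pik3cg, -0.09 for Was and -0.82 for Vav2, with no gene past the threshold and 31 (4.6%) at an unadjusted p under 0.05 in limma.

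Across the 11 libraries the 5 genes differed in how close their profiles lay. As a measure of likeness, each gene's log2 values were centred on their mean and the root mean square difference between 2 genes was taken, over 490 genes that had at least 20 counts in all 11 libraries. Vav1 and Pik3cg lay 0.16 apart, and 0.408% of genes lay closer to Pik3cg than Vav1 did. Arhgef6 and Pik3cg lay 0.20 apart, and 1.63% of genes lay closer to Pik3cg, whose median distance to all genes was 0.46. Vav1 and Was lay 0.19 apart, with 3.88% of genes closer to Was. Arhgef6 and Vav1 were less alike at 0.29, with 17.6% of genes closer to Vav1. Arhgef6 and Was lay 0.41 apart, with 53.5% of genes closer to Was. All these values share the same libraries, depth and scaling. The measure is also small between genes that vary little, whether or not they move together. Was and Vav1 had SDs of 0.24 and 0.25 on the log2 scale, and 87.1% and 84.6% of the genes tested varied more.

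The genes closest to Arhgef6 were Psmb8, an immunoproteasome subunit (0.15), Irf2, an interferon regulatory factor (0.16), and S100a10, an annexin-binding protein (0.17). Those closest to Vav1 were Sptbn1, a spectrin (0.14), Hif1a, the oxygen-sensitive factor (0.15), and Traf2, a receptor adaptor (0.16). Vwa5a (0.15) and Sptbn1 (0.15) were closest to Pik3cg, followed by Vav1. For Was they were Hdac3, a histone deacetylase (0.09), Mob3c (0.11) and Ndufa7, a subunit of respiratory complex I (0.13). Vav2 had no close neighbour: the nearest, Serpinb6a, Csf1r (the macrophage growth factor receptor) and Adgre1 (a macrophage surface protein), lay 0.59, 0.62 and 0.68 away, and these distances include its value held at 20.

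Of 11 other genes of the pathway described here, 10 passed the filter on low values, with Lat, an adaptor of T cell receptor signalling, left out. None of the 10 passed the threshold in any of the 7 comparisons. For Adrb3-/- against WT after ICH, 7 of the 10 were higher, with a median of 0.14 against -0.14 for all genes. For ICH against sham, 7 were higher in Adrb3-/- mice (median 0.06 against -0.16 for all genes) and 7 were lower in WT mice (median -0.11, the same as for all genes).

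Among the GTPases themselves, Rhoj, a relative of Cdc42 known from endothelial cells, was lower after ICH in Adrb3-/- than in WT libraries, with -1.26 on the log2 scale (SE 0.54, adjusted p = 0.42 by limma), the one gene of the 10 with an unadjusted p under 0.05, but it was held at 20 in replicates 1 and 2 of the Adrb3-/- ICH group. Rhog, which can activate Rac through other exchange factors, had 0.13 (SE 0.25), and Rhoc -0.14 (SE 0.34). Among kinases and adaptors that act on Vav proteins, Btk had 0.32 (SE 0.23), Tyrobp (DAP12) 0.32 (SE 0.43), Fyn 0.16 (SE 0.28) and Syk -0.07 (SE 0.22). Among stress kinases activated below Rac and Cdc42, Mapk14 (p38 alpha) had 0.21 (SE 0.22) and Map2k4 0.01.

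The NADPH oxidase, a Rac effector complex of phagocytes, is represented here by Cybb, its membrane subunit. Cybb had a difference of 0.43 (SE 0.40) for ICH in Adrb3-/- mice and -0.68 (SE 0.44) in WT mice. The interaction was 1.11 (SE 0.59, adjusted p = 0.89 by limma). The 12 neutrophil markers, from cells that carry the oxidase, all had a positive interaction as well, with a median of 1.18 and none past the threshold. Their part in the level of Cybb was not tested.

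**Figure D5:**
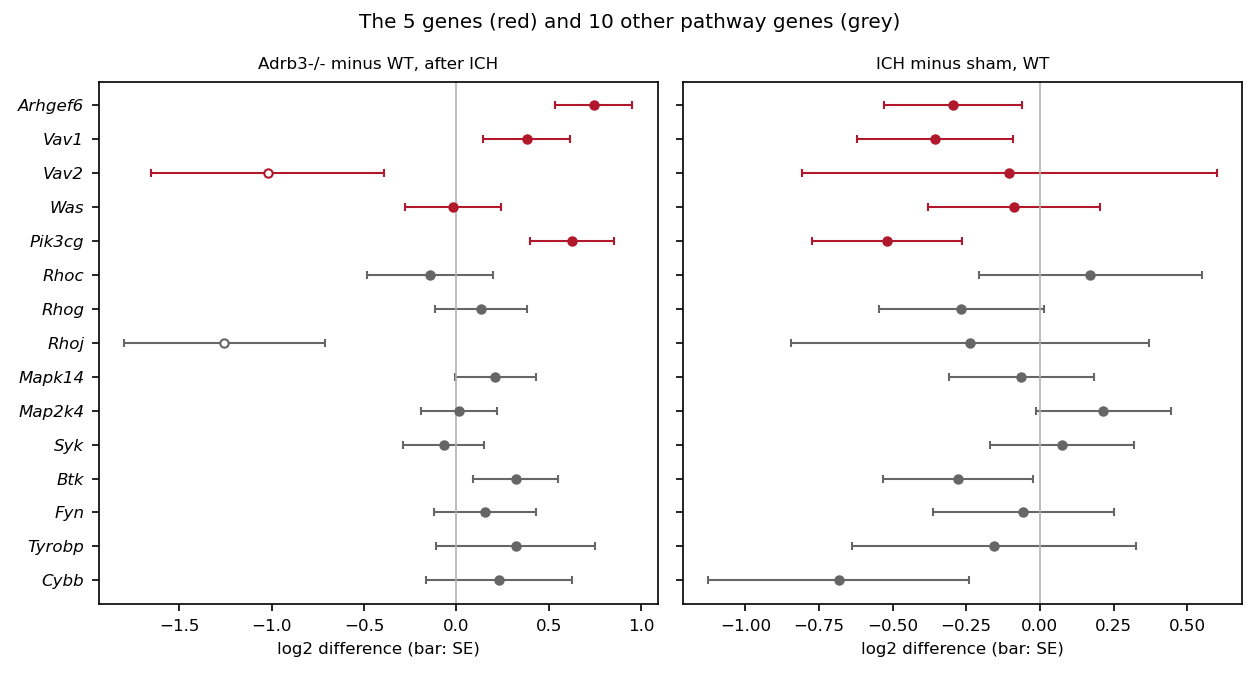
Log2 differences with SE (horizontal axis) of the 5 genes (red) and 10 further pathway genes (grey) for Adrb3-/- against WT after ICH and for ICH against sham in WT mice; open points hold values entered at 20 in the Adrb3-/- ICH group. For Adrb3-/- against WT after ICH, Arhgef6 (0.74) and Pik3cg (0.63) have the largest positive differences of the 15 genes drawn, and Rhoj (-1.26) the largest negative one.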

How the data were processed

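Total RNA of cells sorted as HSCs was measured in 12 libraries, 3 per group, per the labels' protocols. The deposited table holds a signal for 754 genes, 8 negative and 6 positive control probes; which instrument, panel and scaling were used is not given in the sources used here. From the values, the deposited signal of a gene is a whole count (largest gap 0.0045 up to 1000 counts in 11 libraries) multiplied by 1 factor per library, genes under 20 counts are entered at 20, and control probes are not scaled. Counts of held genes are lost, so no count test was run. Counting CVs come from the recovered counts and cover counting error only.

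WT sham replicate 1 was set apart. A gene entered the fit if its average over the remaining 11 libraries was above 52.2, the background: per library, the negative controls' mean and 2 of their SDs, brought to the scaled signal, then averaged over libraries. This kept 674 genes, all 5 described here among them. The fit was limma 3.58.1 in R 4.3.3 on log2(value + 1), by lmFit then eBayes with a mean for each group, 7 residual degrees of freedom, 7 two-sided contrasts, Benjamini-Hochberg adjustment over 674 genes and a threshold of 0.05. A fold change is on that scale and slightly understates the change of low genes. Alternatives changed the libraries, the pseudocount, the filter, the scaling, the held values, a replicate block, array weights and the groups in the fit.

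The 5 genes, the pathway and marker lists and the tests were chosen with earlier results of these data known. All 5 genes were named. A further gene of the pathway was left out of the lists and is not reported here. Of the other pathway genes, those with an unadjusted p under 0.05 or among the 3 largest changes of a list were named, as were the 3 nearest genes by likeness. Of 754 symbols, 744 are current in the RefSeq table of GRCm38.p6, 9 are older names and 1 matched neither. Lists of primary granule, lymphoid, eosinophil, erythroid and stromal markers served the same check of other cells, and are summarised in the closing section.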

Additional observations from a re-analysis of the deposited data

Results flagged for a closer look

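The ICH effect on Arhgef6 had opposite signs in the 2 genotypes: all 3 Adrb3-/- ICH libraries lay above the Adrb3-/- sham mean, and all 3 WT ICH libraries lay below the WT sham mean, though WT ICH replicate 1 (427) lay above WT sham replicate 2 (402). The difference of the effects was 0.66 on the log2 scale. Its test by limma did not pass the threshold (adjusted p = 0.89), and the difference ran from 0.47 to 0.86 when 1 library was left out at a time. The effect in WT was -0.29, with -0.49 without WT sham replicate 2 and -0.096 without WT sham replicate 3.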

How the results depend on the processing

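None of the 5 genes passed the threshold in any of the 7 comparisons under any alternative. Of 685 alternative log2 differences of the 5 genes, 629 kept their direction and their side of the threshold and 56 changed sign, most of them for Was. The cause of each change was not tested.

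With all 12 libraries, the difference of Adrb3-/- from WT after sham was -0.16 for Arhgef6, -0.061 for Vav2 and -0.26 for Pik3cg, the interaction of Was was 0.10, and the averaged ICH difference of Arhgef6 was -0.082. Median centring turned Was to 0.020 (ICH in Adrb3-/-), 0.032 (ICH in WT), 0.064 (genotype after sham), 0.053 (genotype after ICH), 0.026 (averaged ICH) and 0.058 (averaged genotype), Vav2 to 0.016 (ICH in WT) and Vav1 to 0.038 (genotype after sham). Quantile normalization turned Was to 0.052 (ICH in WT), 0.030 (genotype after sham), 0.024 (averaged ICH) and 0.0031 (averaged genotype), and Vav2 to 0.022 (averaged genotype). With held values at the worth of 20 counts, the averaged genotype difference of Vav2 was 0.075. Array weights turned Was to 0.054 (ICH in Adrb3-/-), 0.11 (genotype after ICH), 0.16 (interaction) and 0.028 (averaged genotype), and Pik3cg to -0.013 (genotype after sham).

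Same-numbered libraries of different groups had residual correlations of -0.42 to 0.15, against -0.31 to 0.45 for pairs with other numbers. The residuals of a group of 2 or 3 libraries must sum to 0, so these values cannot show whether the numbers pair libraries. The replicate block turned Was to 0.0089 (ICH in WT), 0.091 (genotype after sham) and 0.036 (averaged genotype) and Vav1 to 0.043 (genotype after sham), and it gave 0 genes past the threshold for ICH in Adrb3-/-, against 7 without it.

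The count of genes past the threshold for ICH in Adrb3-/- was 7, against 0 with 12 libraries, 13 with a pseudocount of 20, 2 with no filter, 1 with median centring, 0 with array weights and 0 with only the groups compared. It ran from 0 to 50 with 1 library left out, with 50 without Adrb3-/- ICH replicate 3 and 23 without replicate 1. For the genotype after ICH it was 2 with no filter and 0 to 49 with 1 library left out, with 49 without Adrb3-/- ICH replicate 3 and 5 without replicate 1. For the averaged genotype it was 2 with no filter and 0 to 3 with 1 library left out. For ICH in WT, the genotype after sham, the averaged ICH and the interaction it ran from 0 to 1.

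With 1 library left out at a time, some differences crossed 0. Arhgef6 ran from -0.12 to 0.28 for the genotype after sham and -0.062 to 0.14 for the averaged ICH. Vav1 ran from -0.090 to 0.29 for ICH in Adrb3-/- and -0.13 to 0.064 for the genotype after sham. Vav2 ran from -0.30 to 0.055 for ICH in WT and -0.59 to 0.15 for the averaged genotype. Was ran from -0.28 to 0.18 for ICH in Adrb3-/-, -0.068 to 0.056 for the genotype after sham, -0.20 to 0.26 for the genotype after ICH, -0.19 to 0.27 for the interaction, -0.18 to 0.047 for the averaged ICH and -0.10 to 0.13 for the averaged genotype. Pik3cg ran from -0.036 to 0.21 for ICH in Adrb3-/- and -0.25 to 0.30 for the genotype after sham.

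Depth limits Vav2 most, since 1 of its 11 values is under the floor. Was stood at 1.24 and Vav2 at 1.34 times background in Adrb3-/- ICH replicate 1.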

Other observations

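Among marker lists not described above, the 3 primary granule markers were lower in Adrb3-/- than in WT sham libraries, with a median log2 difference of -0.84, and 7 of 8 eosinophil, basophil and mast cell markers were lower in Adrb3-/- than in WT ICH libraries, with a median of -0.85. Of 7 stromal and endothelial markers, 6 were lower in Adrb3-/- than in WT ICH libraries, with a median of -0.80. The 3 lymphoid markers had a median of 0.23 in that comparison and the 2 erythroid and megakaryocyte markers -0.21. None of these markers passed the threshold in limma.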
